A study of Homo sapiens with 3 samples.

Results

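The HT1080 line transfected with a glycosylation-site mutant of RECK, labelled HT1080-RECK/4NQ, was compared with the mock-transfected line HT1080-Zeo over all genes that the array could name. Of 54675 probe sets on the array, 41091 carry 1 gene symbol in the platform's annotation, and these represent 19775 genes. The comparison uses 2 of the 3 arrays of the series, 1 for each line. HT1080 is an established human fibrosarcoma line. The mock line carries the empty vector pZeoSV2(+), and the RECK/4NQ line carries that vector with a RECK coding sequence in which 4 asparagines, Asn86, Asn200, Asn297 and Asn352, were changed to glutamine. The array not compared here belongs to HT1080-RECK, a line with the unmutated coding sequence, and its signals are given beside some genes for reference. All lines were grown at 37 °C and 5% CO2 in medium that held Zeocin at 50 µg/mL, the drug that selects for the vector, and 10% fetal calf serum, so the vector and the drug are shared by both. Clone or pool is not stated in the labels for any of the lines, and with 1 array per line the difference between transfected genes cannot be told apart from any other difference between the lines.

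RECK is a glycoprotein held at the cell surface by a glycosylphosphatidylinositol (GPI) anchor. It is known to restrain several matrix metalloproteinases, the enzymes that cut collagen and other matrix proteins, and to act with the receptor ADGRA2 in Wnt7 signalling. N-linked glycans are added to asparagines as a protein enters the endoplasmic reticulum (ER), and they serve there in folding and quality control and later at the surface in stability and binding. The comparison asks how transcripts of cells with the mutant RECK differ from those of mock cells.

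Values are array signals on a linear scale, as deposited. Signals under 12.2, the 40th percentile of all values, were raised to that floor before a ratio was taken, and a fold against a signal below the floor is given as "at least". A ratio of RECK/4NQ to Zeo of 2-fold or more, in either direction, made a gene count as higher or lower. By that rule 558 genes were higher, which is 2.82% of all genes, and 1411 were lower, which is 7.14%. These are the background shares for the counts of list members that follow. Higher genes made up 28.3% of the genes past 2-fold as deposited, but 45.9% after quantile normalisation and 45.2% after centring the arrays on their medians, so the excess of lower genes changed with the scaling. The median log2 ratio of the 14397 genes whose mean level reached the floor was -0.12 as deposited, and medians of gene lists are given relative to it. A lower gene that either scaling brings under 2-fold is named as short of 2-fold there.

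The arrays were alike in 3' to 5' signal ratios and hybridisation controls, while the labelling controls were lower in RECK/4NQ. Over all probe sets other than controls the median signal was 20.3 in Zeo and 17.3 in RECK/4NQ. Of those probe sets 62.3% and 58.4% reached the floor. The 3' to 5' signal ratio of GAPDH was 0.961 in Zeo and 0.923 in RECK/4NQ, and that of ACTB was 1.32 and 1.36. The hybridisation controls had a median log2 ratio of -0.05 over 18 probe sets, and the labelling controls -0.38 over 24, with a range from -0.53 to -0.06. The share of ratios past 2-fold depended strongly on the level of the gene. When genes were ranked by mean signal and cut into 10 bins, 13.5% were higher and 28.2% lower in the bin from 18.7 to 24.4. In the brightest bin, from a mean signal of 1139 upwards, these shares were 0.139% and 0.278%. The median log2 ratio also moved with level, at -0.34 in the weaker of these bins and 0.01 in the brightest. Relative medians of gene lists were not matched for level, and the part of level in them was not tested. As a further scale of error, other probe sets were read for genes whose brightest probe set reached the floor on both arrays. Another probe set counted as measured if it reached the floor on at least 1 array. Some supporting ratios thus include a signal raised to the floor. A gene past 2-fold was called supported if another measured probe set differed at least 1.5-fold in the same direction and none in the opposite. Of 149 higher genes with another measured probe set 34.2% were supported and 43 were opposed, and of 379 such lower genes 44.3% were supported and 64 opposed. Supported genes were thus 51 higher and 168 lower. Of these, 43 higher and 129 lower had a mean level of at least 27.8, the 60th percentile of all values. The account rests most on them.

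**Figure D1:**
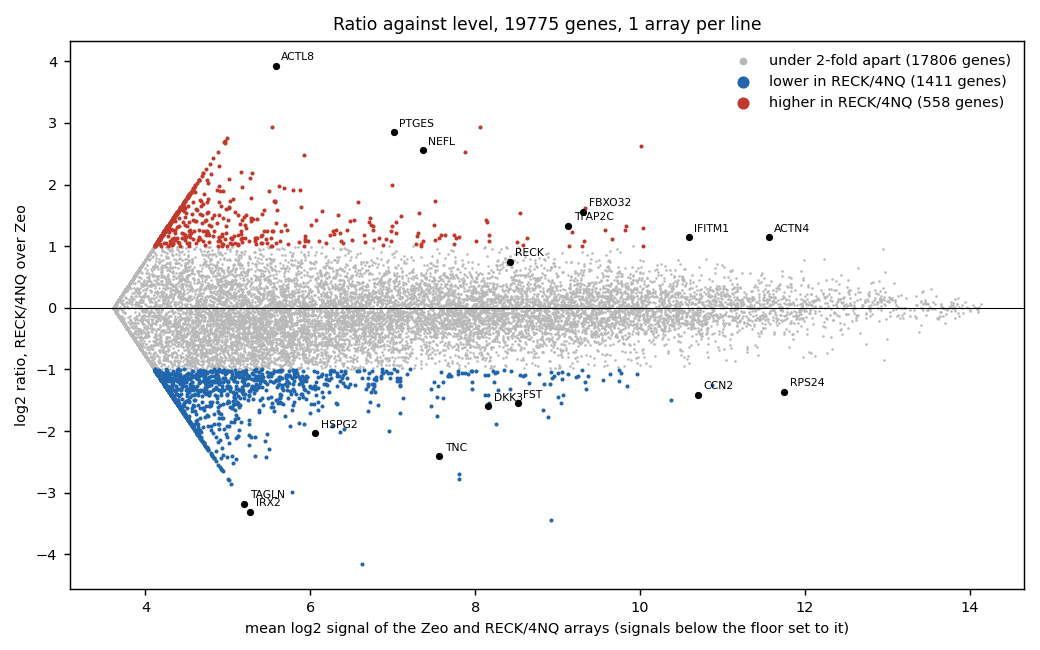
Log2 ratio of RECK/4NQ over Zeo (vertical axis) against the mean log2 signal of both arrays (horizontal axis) for 19775 genes, with the 558 higher genes in red, the 1411 lower genes in blue and the others in grey. The cloud narrows from left to right, so ACTN4, IFITM1, CCN2 and RPS24 lie far outside the genes of their level with ratios between 2.22-fold and 2.67-fold.

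The array reads the transfected gene, RECK, through 5 probe sets. Signals of the brightest were 264 in Zeo, 442 in RECK/4NQ and 387 in RECK, so RECK/4NQ was 1.68-fold above Zeo, short of 2-fold. Another went from 5.64 in Zeo to 25.1 in RECK/4NQ, while a further one, at 26.2 in Zeo and 11.3 in RECK/4NQ, was lower. The remaining pair read 21.7 and 19.8, and 11.2 and 12.4. The probe sets thus did not move together, and whether any of them lies in the transfected coding sequence is not known here, so they do not check the label.

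Of 16 listed genes, which are RECK itself and its known partners, 1 was lower and 0 were higher. This was ADGRA2, the receptor that RECK partners in Wnt7 signalling. Its signal was 62.4 in Zeo and 25.0 in RECK/4NQ, 2.50-fold lower, and its other probe set read 45.3 and 19.1. In the RECK line the same probe sets read 87.2 and 71.9, so RECK/4NQ had the lowest signal of the 3 arrays on both. The metalloproteinases that RECK is best known to restrain were close between the lines. MMP2, a gelatinase, read 1307 in Zeo and 1692 in RECK/4NQ, and MMP14, a membrane-bound activator of MMP2, read 1248 and 1199. The gelatinase MMP9 was at 1947 and 2306. MMP7 was weak, at 7.37 in Zeo, below the floor, and 18.0 in RECK/4NQ. ADAM10, a sheddase of Notch and other surface proteins, read 84.0 and 45.5, 1.84-fold lower, with both of its other measured probe sets lower by at least 1.5-fold. ADAM17, its close relative, differed less, at 87.7 and 71.2. The aminopeptidase ANPEP read 5182 and 5563. The metalloproteinase inhibitors TIMP1, TIMP2 and TIMP3 read 9692, 2561 and 60.3 in Zeo and 9116, 1912 and 78.0 in RECK/4NQ on their brightest probe sets, all within 1.34-fold. TIMP3 had 3 other probe sets, and all were higher in RECK/4NQ: they read 15.4, 18.1 and 72.0 in Zeo, 82.2, 42.4 and 92.3 in RECK/4NQ and 248, 119 and 137 in RECK.

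Other extracellular proteases differed in both directions and mostly at low signals. Among 14 further matrix metalloproteinases 1 was higher and 2 were lower. MMP17, a GPI-anchored member, read 76.0 in Zeo and 14.4 in RECK/4NQ, 5.26-fold lower on its single probe set. MMP28 read 85.2 and 29.2, 2.92-fold lower, but its other measured probe set moved the opposite way. MMP15 read 12.7 and 30.0, 2.36-fold higher. Of 19 ADAM and ADAMTS genes 2 were higher and 2 lower. ADAM9, a membrane sheddase, read 97.4 and 38.4, 2.54-fold lower. ADAMTS10 was below the floor in Zeo, at 10.3, and read 51.8 in RECK/4NQ, at least 4.24-fold higher. ADAM23 read 27.9 and 83.6, with 2 other probe sets opposed. None of 11 genes of plasminogen activation reached 2-fold: the activator PLAU read 9750 and 6823, and its receptor PLAUR 5182 and 4612. Of 19 cathepsins and cystatins 1 was lower, the lysosomal protease CTSF, at 105 and 42.3.

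The genes that build, trim and read N-glycans were almost unmoved. None of 27 genes of oligosaccharyltransferase and glycan assembly and none of 26 genes of glycan trimming and Golgi transfer reached 2-fold, with list medians of 0.05 and -0.10 relative to all genes. The member farthest from 0 in the first list was DOLPP1, which recycles the lipid carrier of the glycan, at 1042 in Zeo and 544 in RECK/4NQ, 1.92-fold lower. STT3B, a catalytic subunit of the transferase, read 167 and 96.5. Of 17 lectin chaperones and ER degradation genes 1 was lower, SEL1L, a part of the complex that retrieves misfolded glycoproteins, at 54.0 and 25.9. Its other probe sets disagreed in direction, and it was short of 2-fold under both scalings. The lectin chaperone calnexin (CANX) read 658 and 776.

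The unfolded protein response, which raises chaperone transcripts when folding in the ER fails, also showed few differences. Of 24 genes 0 were higher and 1 was lower, DNAJC3, an ER co-chaperone, at 56.3 and 27.1 (2.08-fold, and short of 2-fold under both scalings). ATF4, a factor translated when the response is active, read 2130 in Zeo and 3138 in RECK/4NQ, 1.47-fold higher, and HERPUD1 read 1792 and 2542. HSP90B1, an ER chaperone, read 49.1 and 34.8. The list median was 0.04 above that of all genes. Among 25 genes that make the GPI anchor, by which RECK is held, none reached 2-fold. Their relative median was 0.21, but without probe sets shared between transcripts that relative median turned to -0.04.

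The amino acid response shares ATF4 with the unfolded protein response and serves amino acid supply. Of its 23 genes 1 was higher and 1 was lower, with a relative median of 0.28. The neutral amino acid transporter SLC1A4 read 235 in Zeo and 468 in RECK/4NQ, 1.99-fold higher, with 3 of 4 other probe sets higher by at least 1.5-fold. The tryptophanyl-tRNA synthetase WARS1 read 603 and 1035, 1.72-fold higher. The glycine transporter SLC6A9 was below the floor in Zeo, at 8.20, and read 30.6 in RECK/4NQ. ASNS, the enzyme that makes asparagine, went against these: it read 639 and 302, 2.12-fold lower, short of 2-fold after centring, and 175 in RECK. CHAC1, which degrades glutathione, read 68.4 and 108, and AARS1, the alanyl-tRNA synthetase, had a log2 ratio of 0.44. The letters TGATGNAAN, which describe the element that ATF4 binds in this response, were searched on both strands of the 250 bases upstream of each start site. They occurred in 3 of 20 promoters of the list (15.0%) and in 2.31% of 15384 promoters of measured genes. These are the promoters of ASNS, CHAC1 and AARS1, whose transcripts differed in direction. They are printed 5′ to 3′ on the gene's strand from the RefSeq tables for GRCh38, with the match in capitals: ASNS lies at chr7:97872409-97872658 on the minus strand, CHAC1 at chr15:40953221-40953470 on the plus strand and AARS1 at chr16:70289507-70289756 on the minus strand. A match describes letters and is no evidence of binding.
ASNS: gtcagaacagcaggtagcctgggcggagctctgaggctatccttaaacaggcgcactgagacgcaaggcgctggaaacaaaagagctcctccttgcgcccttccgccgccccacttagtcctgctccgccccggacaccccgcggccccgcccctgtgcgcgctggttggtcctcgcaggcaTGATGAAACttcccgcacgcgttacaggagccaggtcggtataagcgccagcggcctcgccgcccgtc
CHAC1: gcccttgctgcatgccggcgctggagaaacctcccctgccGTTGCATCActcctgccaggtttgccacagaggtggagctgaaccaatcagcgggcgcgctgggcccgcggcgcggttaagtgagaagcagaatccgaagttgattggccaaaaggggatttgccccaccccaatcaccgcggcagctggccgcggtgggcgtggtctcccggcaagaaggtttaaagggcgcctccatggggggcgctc
AARS1: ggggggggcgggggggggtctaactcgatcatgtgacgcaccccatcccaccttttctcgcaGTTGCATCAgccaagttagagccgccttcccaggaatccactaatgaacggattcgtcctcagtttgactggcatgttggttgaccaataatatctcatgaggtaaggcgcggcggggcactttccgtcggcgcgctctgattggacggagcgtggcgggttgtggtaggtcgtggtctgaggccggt

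Several genes of the extracellular matrix differed on more than 1 probe set, and TNC, HSPG2 and LOX were lower in RECK/4NQ. TNC encodes tenascin-C, a large matrix glycoprotein made by tumour stroma. It read 436 in Zeo and 82.1 in RECK/4NQ, 5.31-fold lower, and 870 in RECK. HSPG2 encodes perlecan, the main heparan sulfate proteoglycan of basement membranes. Its probe sets read 135 and 28.8 in Zeo, 32.9 and 14.1 in RECK/4NQ, and 182 and 25.1 in RECK. LOX, the enzyme that crosslinks collagen and elastin, read 453, 73.5 and 128 in Zeo on its 3 probe sets and 170, 27.6 and 27.6 in RECK/4NQ, so it was lower on all of them. In RECK they read 141, 31.9 and 28.4, near RECK/4NQ rather than near Zeo.

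Basement membrane components had the lowest list median. Of 12 genes for laminins and basement membrane 4 were lower (33.3% against 7.14% of all genes) and 0 higher, and the relative median was -0.44, below that of every other list with at least 10 members at the floor. After quantile normalisation 4 and after centring 2 of them were past 2-fold. LAMA1, LAMA4 and LAMA5 encode laminin alpha chains. LAMA1 read 162 in Zeo, 66.9 in RECK/4NQ and 90.2 in RECK. LAMA4 read 109, 48.7 and 73.7, and another of its probe sets read 33.0 and 15.3. LAMA5 read 407, 191 and 105, so here the RECK array was the lowest. LAMA4 and LAMA5 were 2.24-fold and 2.12-fold lower and short of 2-fold after centring. The member with the largest signal, LAMB3, a laminin beta chain, read 4405 and 3118, 1.41-fold lower. The nidogens NID1 and NID2, which link laminin to collagen IV, read 251 and 35.3 in Zeo and 163 and 19.2 in RECK/4NQ.

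Of 22 fibrillar and network collagens 4 were lower and 0 higher. COL5A1, a regulator of fibril diameter, read 201 in Zeo and 92.0 in RECK/4NQ, 2.18-fold lower and short of 2-fold after centring, against 493 in RECK. COL5A3, COL4A6 and COL1A2 were below the floor in RECK/4NQ, at 8.74, 9.93 and 2.31, and read 38.8, 37.6 and 26.2 in Zeo, so these are weak signals, and COL1A2 was short of 2-fold under both scalings. The list had 3 lower genes after quantile normalisation and 2 after centring. The collagen VI genes, whose products form beaded filaments, were among the brightest and stayed under 2-fold in opposite directions. COL6A1 read 1125 and 1836, 1.63-fold higher, while COL6A3 read 6007 and 4305, 1.40-fold lower. Of 22 genes for collagen processing and crosslinking LOX alone reached 2-fold. Matricellular and fibre proteins were split, with 2 of 27 higher and 4 lower. The thrombospondins THBS2 and THBS3, which bind growth factors and cells, were higher, at 69.5 and 50.5 in Zeo and 168 and 106 in RECK/4NQ. Parts of elastic fibres were lower: MFAP2 read 60.9 and 22.0, 2.77-fold lower, and fibrillin-2 (FBN2) read 143 and 70.7, 2.02-fold lower and short of 2-fold under both scalings. MFAP5, also of elastic fibres, was below the floor in RECK/4NQ, at 12.0, against 28.3, and short of 2-fold after quantile normalisation. Of 29 genes for proteoglycans and hyaluronan 2 were higher and 1 was lower, with a relative median of -0.25. The secreted proteoglycan serglycin (SRGN) read 819 and 415, 1.97-fold lower. The syndecan SDC2 read 15.7 and 45.6, 2.90-fold higher, with its other measured probe set opposed.

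**Figure D2:**
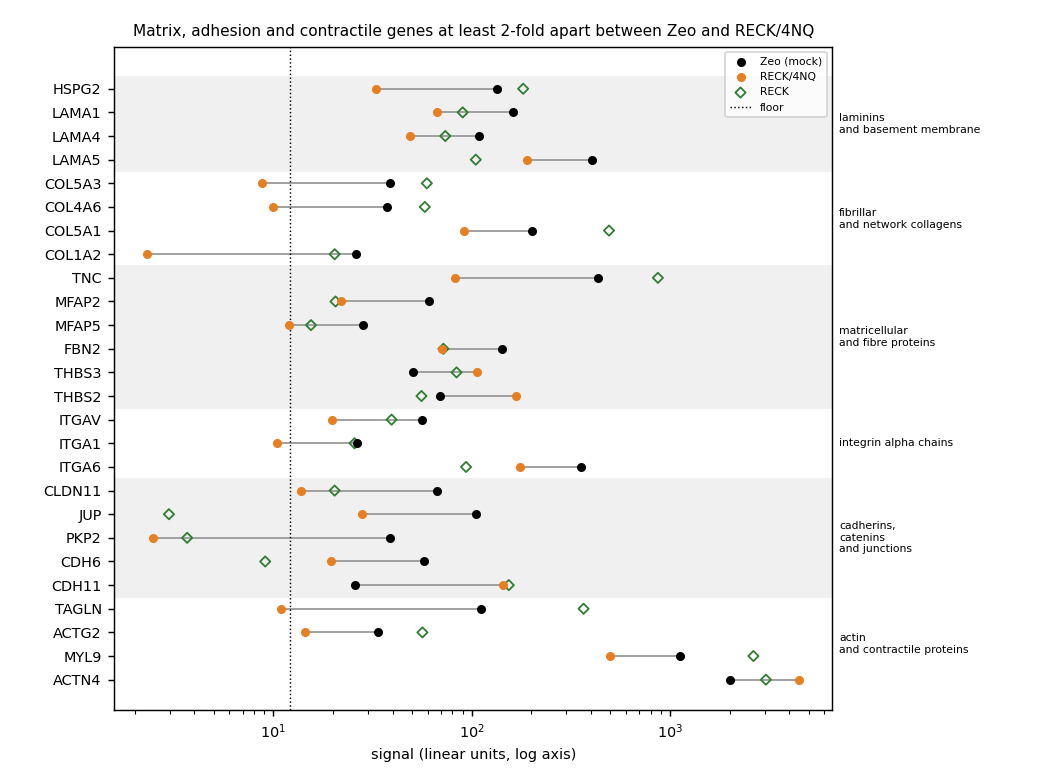
Signals (log axis) on the Zeo array (black), the RECK/4NQ array (orange) and the RECK array (green diamonds) of members of 6 matrix, adhesion and contractile lists that differed at least 2-fold between Zeo and RECK/4NQ; the dotted line is the floor of 12.2. The orange point lies left of the black one for all genes shown apart from THBS2, THBS3, CDH11 and ACTN4, and for TNC, HSPG2, COL5A1 and MYL9 the RECK array lies right of Zeo.

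Receptors for the matrix followed with smaller differences. Of 16 integrin alpha chains 3 were lower and 0 higher, and 1 was past 2-fold under either scaling. ITGAV, the alpha chain of vitronectin and latent TGF-beta receptors, read 56.5 in Zeo and 19.8 in RECK/4NQ, 2.85-fold lower. ITGA6, a laminin receptor chain, read 357 and 175 on 1 probe set and 134 and 52.5 on the other, and was short of 2-fold under both scalings on the first. ITGA3, another laminin receptor chain, read 2066 and 1545. Among 8 integrin beta chains ITGB1, the common partner of many alpha chains, read 519 and 354. ITGB2, the chain of leukocyte integrins, was higher at 22.6 and 48.8. ITGB4 was lower at 29.5 and 10.4, but 2 other probe sets were opposed, and averaging its probe sets gave a log2 ratio of 0.38. CD44, the hyaluronan receptor, read 3388 and 4147, and none of its 9 other measured probe sets differed by 1.5-fold either way.

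Among 23 focal adhesion genes 3 were lower and 0 higher. CAV2, a coat protein of caveolae, read 170 and 82.2, and 104 and 37.5 on another probe set. NEDD9, a docking protein at adhesions, read 63.9 and 31.1. Both were short of 2-fold under both scalings. PTK2B, an adhesion kinase, read 31.3 and 7.08. Of 20 cadherin, catenin and junction genes 4 were lower and 1 was higher. Plakoglobin (JUP), which ties cadherins to the cytoskeleton, read 105 in Zeo, 27.9 in RECK/4NQ and 2.98 in RECK. The tight junction protein CLDN11 read 66.9 and 13.8, 4.83-fold lower, and CDH6 read 57.8 and 19.6. PKP2, a desmosomal plaque protein, read 39.0 and 2.47. The relative median of the list was -0.24, and it was 0.00 when probe sets were averaged. CDH11, a mesenchymal cadherin, read 25.7 and 144, but it had a log2 ratio of -1.70 without shared probe sets.

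The cytoskeleton held a few large differences among bright genes. ACTN4, an actin-bundling alpha-actinin, read 2019 in Zeo, 4495 in RECK/4NQ and 3047 in RECK, 2.23-fold higher than Zeo. It had the largest gain in signal of all higher genes measured on both arrays. Of 23 actin and contractile genes 1, ACTN4, was higher and 3 were lower (2 under either scaling), with a relative median of 0.04. MYL9, the regulatory myosin light chain, read 1125, 500 and 2636 on these arrays in the same order. Its other probe set read 42.5, 15.8 and 54.6, and on the first it was short of 2-fold after centring. TAGLN, an actin-binding protein of smooth muscle and stress fibres, read 111, 10.9 and 367 on its brightest probe set and 47.6, 28.7 and 316 on another. The remaining TAGLN probe set went the other way, from 42.2 to 61.7, a log2 ratio of 0.55. ACTG2, smooth muscle gamma-actin, read 33.6 and 14.4 and was short of 2-fold after quantile normalisation. MYLK, the kinase that phosphorylates myosin light chains, read 972 and 1456, a log2 ratio of 0.58, with 1 other probe set higher and 1 lower by at least 1.5-fold. Of 19 intermediate filament genes NEFL, the light neurofilament chain, was higher, at 68.0, 400 and 675 on Zeo, RECK/4NQ and RECK, and its other probe sets read 2.78 and 26.2 in Zeo and 21.3 and 34.0 in RECK/4NQ. INA, a related neuronal filament, read 42.2 in Zeo and 10.8 in RECK/4NQ. The keratin KRT8 read 1306 and 1039.

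YAP and TAZ are co-activators that carry mechanical cues to the nucleus and act through TEAD factors. Of 21 listed targets 4 were lower and 0 higher, 3 of them after quantile normalisation and 2 after centring, but the relative median was only -0.04. CCN2, a secreted matricellular factor and a standard YAP target, read 2707 in Zeo, 1016 in RECK/4NQ and 2376 in RECK, 2.67-fold lower. CRIM1, a membrane protein that binds growth factors, read 291, 131 and 128 in Zeo and 121, 63.1 and 56.2 in RECK/4NQ, so its 3 probe sets were lower alike. CCN1, a relative of CCN2, read 6357 and 3826 on its brightest probe set and 2764 and 1291 on the other, 1.66-fold lower on the first. GADD45B, a stress-response gene, read 883 and 405, short of 2-fold after centring, with 2 more probe sets lower. Its remaining probe set had a log2 ratio of 0.07. F3, tissue factor, read 137 and 67.5, short of 2-fold under both scalings. AMOTL1 and LATS2, whose products hold YAP in check, were in the other direction, at 237 and 140 in Zeo and 401 and 221 in RECK/4NQ, both under 2-fold.

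The TEAD recognition letters CATTCC were searched on both strands of the same 250-base windows. They occurred in 5 of 16 promoters of the YAP list (31.2%) and in 10.3% of 15384 promoters of measured genes. The CCN2 promoter held 3 matches and the ANKRD1 promoter 2, the most in the list, while CCN2 was 2.67-fold lower and ANKRD1, a muscle ankyrin-repeat protein, had a log2 ratio of 0.56. PTPN14, TGFB2 and FOXF2 held 1 match each, and their log2 ratios were 0.35, -0.44 and -0.02. The CCN2 and ANKRD1 windows are shown because the same letters stood before genes that differed in opposite directions. Matches are in capitals (GGAATG is CATTCC on the other strand), and the sequences are from RefSeq on GRCh38: CCN2 at chr6:131951373-131951622 and ANKRD1 at chr10:90921088-90921337, both on the minus strand.
CCN2: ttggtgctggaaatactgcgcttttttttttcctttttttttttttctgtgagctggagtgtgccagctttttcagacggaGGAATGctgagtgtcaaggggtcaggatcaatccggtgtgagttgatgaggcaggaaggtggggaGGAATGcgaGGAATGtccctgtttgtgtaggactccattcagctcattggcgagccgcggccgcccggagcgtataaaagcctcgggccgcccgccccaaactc
ANKRD1: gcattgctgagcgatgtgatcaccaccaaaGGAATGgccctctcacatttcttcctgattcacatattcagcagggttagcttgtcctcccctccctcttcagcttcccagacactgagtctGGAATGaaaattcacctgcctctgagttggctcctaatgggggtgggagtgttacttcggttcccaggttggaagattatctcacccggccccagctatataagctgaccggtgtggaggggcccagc

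TGF-beta and its relatives, the activins, signal through SMAD factors, and the bone morphogenetic proteins (BMPs) through others of that family. Of 22 TGF-beta ligands, receptors and targets 1 was higher and 2 lower, and the relative median was 0.33. PMEPA1, a target and feedback inhibitor of the pathway, read 378, 82.7 and 323 in Zeo and 888, 218 and 1226 in RECK/4NQ, so all 3 probe sets were higher by at least 2.35-fold. TGFBI, a secreted target, read 1649 and 2620, 1.59-fold higher, and 7127 in RECK. FST, follistatin, a secreted binder of activins, read 629, 172 and 445 in Zeo and 214, 37.6 and 86.8 in RECK/4NQ, lower on all 3 probe sets. ENG, endoglin, a co-receptor, read 1252 and 606, short of 2-fold after centring, and its other probe set read 250 and 166. Of 18 BMP ligands, antagonists and ID genes 1 was higher and 2 were lower. The BMP antagonist NOG read 544 and 256, 2.12-fold lower and short of 2-fold after centring, and ID1, a BMP target, read 6280 and 4926.

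Wnt ligands, receptors and inhibitors had 6 of 29 members lower (20.7%) and 0 higher, a count that both scalings left at 6. Secreted inhibitors were among them. DKK3 read 498 in Zeo, 164 in RECK/4NQ and 1105 in RECK, 3.04-fold lower than Zeo. Its other probe sets above the floor on both arrays read 135, 55.1 and 111 in Zeo and 55.0, 35.9 and 44.0 in RECK/4NQ, so all were lower. DKK1 read 40.3 and 15.9. The receptors FZD3 and FZD5 read 54.7 and 43.5 in Zeo and 20.9 and 10.1 in RECK/4NQ, and the ligand WNT10B read 32.2 and 5.65. Apart from DKK3 the named members read at most 54.7 in either line. The relative median of the list was -0.11.

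Of 22 Notch genes 3 were lower, a receptor and a pair of ligands, and 3 were higher, all of them weakly expressed targets. NOTCH1 read 702 in Zeo and 298 in RECK/4NQ, 2.36-fold lower. Its ligands DLL1 and DLL3 read 111 and 63.2 in Zeo and 54.4 and 8.05 in RECK/4NQ, with DLL1 short of 2-fold under both scalings. The targets HEY2, DTX1 and NRARP read 7.80, 8.89 and 12.3 in Zeo, below the floor for the first pair. In RECK/4NQ HEY2 read 44.9 and NRARP 26.6, and DTX1 was at least 3.27-fold higher.

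Feedback genes of the ERK pathway were lower in 3 of 26 cases and higher in 0. DUSP5, a nuclear phosphatase for ERK, read 1291 in Zeo, 565 in RECK/4NQ and 300 in RECK. DUSP2 read 81.3 and 33.9. EGR1, an immediate early factor, read 51.1 and 20.8, with another probe set opposed. None of 13 EGF ligands and ERBB receptors reached 2-fold, and EGFR read 495 and 386. Of 36 genes of the PDGF, FGF, VEGF and HGF families 2 were higher and 4 lower. VEGFA, the main angiogenic factor, was higher on its brightest probe set, and its 3 others read 197, 83.7 and 295 in Zeo and 230, 145 and 528 in RECK/4NQ. FGFR3 read 115 and 35.6, with another probe set opposed. PDGFB, FGF2 and FGF5 read 66.0, 48.4 and 41.3 in Zeo and were below the floor in RECK/4NQ, at 7.00, 11.5 and 4.98. Another FGF5 probe set was opposed, at 2.99 in Zeo and 31.0 in RECK/4NQ.

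Inflammatory genes gave a mixed picture. PTGES, the enzyme that makes prostaglandin E2, read 48.0 in Zeo, 346 in RECK/4NQ and 89.5 in RECK on its brightest probe set, 7.20-fold higher than Zeo, but only 58.0, 88.2 and 48.6 on the other. PTGS1, a cyclooxygenase upstream of it, read 42.5 and 12.6. Of 19 genes of the interleukin-1 family and prostaglandin synthesis 1 was higher and 2 were lower. Of 29 chemokines, cytokines and NF-kB targets 1 was lower, the cytokine IL6, at 92.9 in Zeo and 2.27-fold lower in RECK/4NQ, and 0 were higher. LIF, a cytokine of the IL-6 family, read 323 and 554. Interferon-stimulated genes were not higher together: of 27 members 1 was higher and 3 were lower, and the relative median was 0.10. The higher one, IFITM1, a membrane protein that blocks viral entry, read 1033 in Zeo, 2290 in RECK/4NQ and 562 in RECK. IFIT3, IFIT5 and XAF1 read 56.8, 30.5 and 36.0 in Zeo and 28.2, 12.6 and 7.00 in RECK/4NQ, with IFIT3 short of 2-fold under both scalings. None of 15 genes of MHC class I and antigen processing reached 2-fold. IL7R, the interleukin-7 receptor chain, was lower on both its probe sets, at 83.3 and 58.1 in Zeo and 19.5 and 5.57 in RECK/4NQ.

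Metabolic lists held few genes past 2-fold. In the list for hypoxia response and glycolysis 3 of 32 were higher (9.38% against 2.82%) and 0 lower, with a relative median of 0.22 and 23 of 31 members at or above the floor having ratios above 0. PDK1, which keeps pyruvate out of mitochondria, read 13.9 in Zeo and 49.7 in RECK/4NQ. Its other probe sets read 28.7 and 14.8 in Zeo and 23.3 and 7.97 in RECK/4NQ, so neither was higher. LDHA, lactate dehydrogenase A, read 5100 and 7954, 1.56-fold higher, and 4132 in RECK. ENO2, an enolase, read 264 and 488, and the glucose transporter SLC2A3 read 249 and 435. Against these, BNIP3, a mitophagy receptor raised by hypoxia, read 612 and 382. Fatty acid enzymes had 1 of 17 higher, ACACA, acetyl-CoA carboxylase, the committed step of fatty acid synthesis, at 171 and 463. Its other probe set read 158 and 184 and so gave no support. Outside the lists, 2 enzymes of fatty acid breakdown were named for their size of difference: ACAA2, a mitochondrial thiolase, read 81.1 and 213 with another probe set in support, and the peroxisomal oxidase ACOX2 read 574 and 1437, 2.50-fold higher, against 370 in RECK. MAOA, monoamine oxidase A, read 68.4 and 171, supported by both other measured probe sets.

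Cholesterol genes had 1 of 20 lower and a relative median of -0.22, with 17 of 19 members at or above the floor below 0. The isomerase IDI1 read 139 and 75.0, 1.85-fold lower, and the retention protein INSIG1 read 370 and 238, both with 2 other probe sets lower. Of the 18 promoters matched for this list 1 held the sterol element letters TCACNCCAC, against 0.832% of all. NRF2 targets, which protect against oxidants, had 1 of 21 higher, the reductase AKR1C3 at 18.5 and 50.6, and a relative median of 0.28. Their promoters held the letters TGACNNNGC in 4 of 16 cases (25.0%), against 12.0% of all promoters. Respiratory chain subunits had 2 of 26 lower, COX7B at 804 and 254 and UQCRB at 425 and 208, the latter short of 2-fold under both scalings. The synthase subunit ATP5F1A read 3633 and 6313 in the other direction, 1.74-fold higher.

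Growth genes were read in lists for replication and mitosis. None of 29 DNA replication genes reached 2-fold, and the farthest from 0 was thymidylate synthase (TYMS), at 6468 in Zeo and 4068 in RECK/4NQ. Mitosis genes had 4 of 28 lower (14.3% against 7.14%) and 0 higher, with a relative median of 0.12. After quantile normalisation 3 were lower and after centring 2. The kinesin KIF11, which separates spindle poles, read 37.7 in Zeo and was below the floor in RECK/4NQ, at 5.70, at least 3.08-fold lower. TOP2A, topoisomerase II alpha, read 164 and 75.6 with another probe set opposed, and MAD2L1, a spindle checkpoint protein, read 299 and 142. Both were short of 2-fold after centring, and MAD2L1 had a log2 ratio of 0.50 without shared probe sets. PLK1, a mitotic kinase, read 1597 and 2583. SMC4, a condensin subunit, was lower on 2 probe sets, at 168 and 108 in Zeo and 42.8 and 47.6 in RECK/4NQ. RECQL, a DNA helicase, read 80.2, 40.5 and 20.2 in Zeo and 14.0, 19.4 and 2.55 in RECK/4NQ on 3 probe sets. No p53 target of 18 reached 2-fold, and the list's relative median was -0.22. The cell cycle inhibitor CDKN1A read 2170 and 1616.

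Of 19 cytosolic ribosomal protein genes 18 were within 2-fold. The other, RPS24, read 5518 in Zeo, 2147 in RECK/4NQ and 5081 in RECK, 2.57-fold lower, while the rest of the list at that level kept close to 0: RPL8 read 15952 and 14958, and RPS4X 13841 and 14612. The second RPS24 probe set, much weaker, read 28.5 and 17.6. RPL22L1, a paralog of a ribosomal protein outside this list, read 2225, 793 and 3449 on Zeo, RECK/4NQ and RECK. None of 16 housekeeping genes reached 2-fold, with a relative median of 0.16.

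**Figure D3:**
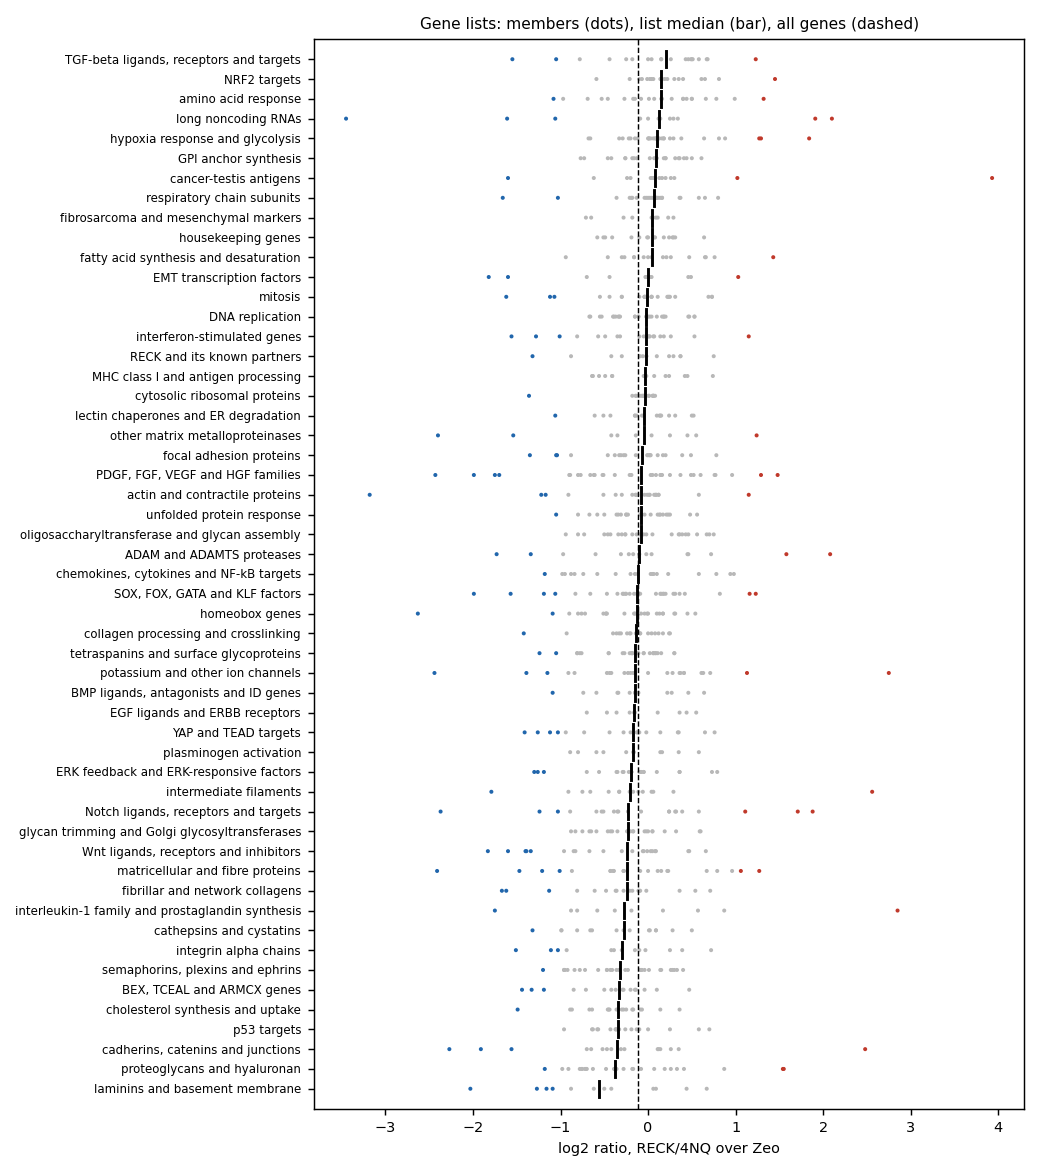
Log2 ratio of RECK/4NQ over Zeo for the members of each gene list with at least 10 members whose mean level reached the floor (dots, red if higher and blue if lower by 2-fold), with the list's median (black bar) and the median of all genes at -0.12 (dashed line). List medians lie between -0.56 for laminins and basement membrane and 0.20 for the TGF-beta list, and most lists hold members past 2-fold on at least 1 side.

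Transcription factors differed singly rather than by family. TFAP2C, a factor of epidermal and germ cells, read 354 and 31.9 in Zeo and 886 and 64.8 in RECK/4NQ on its 2 probe sets, higher on both. HDAC4, a histone deacetylase that binds MEF2 factors, read 40.3 and 21.2 in Zeo and 102 and 47.1 in RECK/4NQ. FBXO32, a muscle ubiquitin ligase and a FOXO target, was higher on its brightest probe set and on all 4 others that were measured. The brightest read 369 in Zeo, 1093 in RECK/4NQ and 929 in RECK, and the next read 132, 260 and 185. FOXO1 itself read 40.8 and 91.5, 2.24-fold higher with another probe set in support. GATA2 read 247 and 62.4, 3.96-fold lower, with 258 in RECK. Its other probe sets read 66.4 and 69.5 in Zeo and 69.8 and 50.8 in RECK/4NQ, neither 1.5-fold apart. Of 33 SOX, FOX, GATA and KLF genes 2 were higher and 4 lower. SNAI1, a repressor of E-cadherin, read 46.3 and 13.1, and of 17 EMT factors 1 was higher and 2 were lower. IRX2, a homeobox gene, read 122 in Zeo and 11.1 in RECK/4NQ, at least 9.95-fold lower, with 45.5 in RECK. Its other measured probe set gave no support. Of 34 listed homeobox genes 2 were lower and 0 higher, among them HOXC8, at 26.0 and 8.12, which was short of 2-fold under both scalings. HOXB2, among the brightest of the list, read 1953 and 1118.

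Surface, secreted and trafficking proteins supplied several of the named genes. SBSN, suprabasin, a secreted protein of the epidermis, read 415 in Zeo, 2543 in RECK/4NQ and 2219 in RECK on its only probe set, 6.13-fold higher than Zeo. SIRPB1, a signal-regulatory surface receptor best known on myeloid cells, read 100 in Zeo, 333 in RECK/4NQ and 60.7 in RECK, and its other measured probe set read 52.2 in RECK/4NQ and 4.01 in RECK, with a log2 ratio of 1.31 over Zeo. FAM20C, the kinase that phosphorylates secreted proteins in the Golgi, read 367, 107 and 21.9 in Zeo and 1123, 156 and 38.7 in RECK/4NQ. DDR2, a collagen receptor kinase, read 28.9 and 68.5, with 2 more probe sets in support, 1 of them below the floor in Zeo, at 5.47. The remaining DDR2 probe set went the other way, from 55.5 in Zeo to 43.4 in RECK/4NQ. TMEM163, a zinc transporter of vesicles, read 100 and 175 in Zeo and 20.5 and 4.53 in RECK/4NQ. RAB27B, which guides secretory vesicles, read 87.3 and 29.6, with 2 more probe sets lower. The palmitoyltransferase ZDHHC14 read 80.1 and 18.8. Of 30 tetraspanins and surface glycoproteins ALCAM, an adhesion molecule, and ENG were lower, ALCAM at 79.4 and 33.7. Of 35 semaphorins, plexins and ephrins 1 was lower, SEMA6A, at 89.9 and 39.1, and the relative median was -0.20. Of 30 ion channels 2 were higher and 3 lower, including the potassium channel KCNK3 at 59.1 and 22.6.

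**Figure D4:**
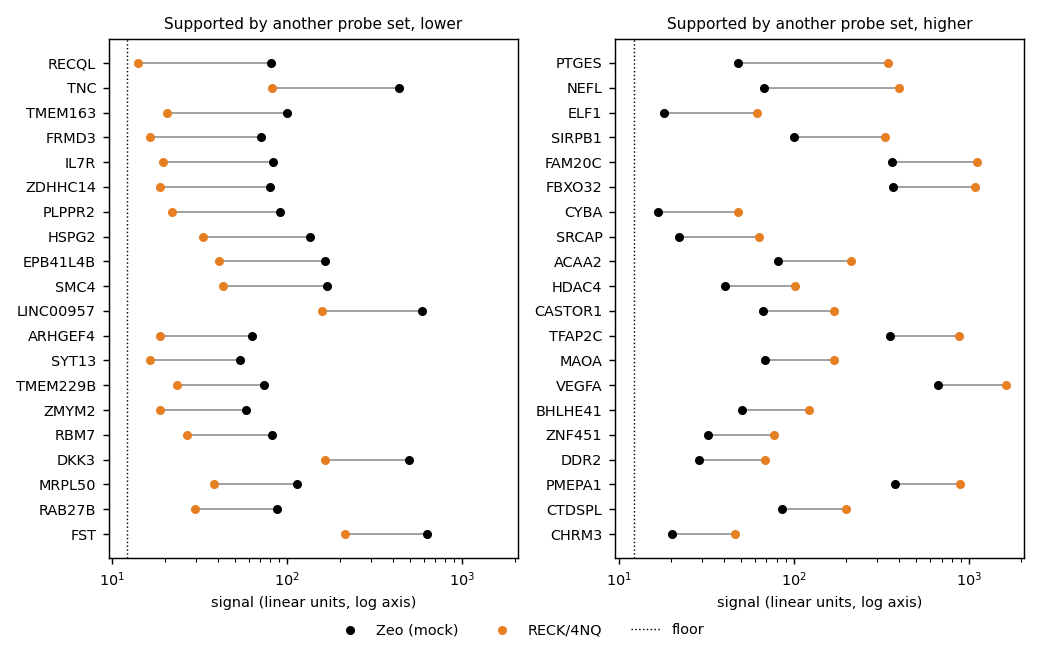
Signals (log axis) on the Zeo array (black) and the RECK/4NQ array (orange) of 20 lower genes (left) and 20 higher genes (right). These have the largest ratios among genes with a mean level of at least 27.8 that another probe set supported and none opposed. The dotted line is the floor of 12.2. Differences between the points run from FST, 2.93-fold, to RECQL, 5.71-fold, on the left and from CHRM3, 2.30-fold, to PTGES, 7.20-fold, on the right.

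Some of these supported genes rest on probe sets shared between transcripts. Without shared probe sets EPB41L4B, an adaptor of the cortical cytoskeleton, which read 165 and 40.9, had a log2 ratio of 0.27, and SRCAP, a chromatin remodeller, which read 22.2 and 63.1, had -0.06. Among long noncoding RNAs 2 of 15 were higher and 3 lower. UCA1, best known from bladder cancer, read 1597 in Zeo, 146 in RECK/4NQ and 2460 in RECK on its only probe set, 10.9-fold lower than Zeo. LINC00957 outside that list was lower on its brightest probe set, at 588, 158 and 195 on Zeo, RECK/4NQ and RECK. MALAT1, an abundant nuclear RNA, read 28.5 and 107 on its brightest probe set, but 2 of its other probe sets supported and 2 opposed this. GAS5, the host of small nucleolar RNAs, read 38.3 and 18.3 and was short of 2-fold under both scalings. Cancer-testis antigens, germline genes that tumours reactivate, had 2 of 18 higher and 2 lower. ACTL8, an actin-like member, was below the floor in Zeo, at 5.58, and read 187 in RECK/4NQ and 50.3 in RECK, at least 15.3-fold higher than Zeo. MAGEA6 and CTAG2 were bright in both lines, at 4214 and 6417 in Zeo and 3560 and 7685 in RECK/4NQ, and since these families have near-identical copies their probe sets may read more than 1 gene. MAGEC2 read 307, 101 and 772 on Zeo, RECK/4NQ and RECK, but had a log2 ratio of 1.03 without shared probe sets. Of 18 X-linked BEX, TCEAL and ARMCX genes 3 were lower and 0 higher, and the relative median was -0.20. ARMCX1 read 203 and 89.5, and TCEAL8 81.9 and 30.1.

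The cell type of the label was read from marker lists. Some mesenchymal markers were bright in both lines: FN1, fibronectin, read 2444 in Zeo and 2639 in RECK/4NQ, SPARC 3627 and 4239, and CAV1 577 and 474. Others were weaker, such as S100A4 at 94.4 and 57.6 and THY1 at 47.6 and 50.7. Of 13 mesenchymal markers 10 reached the floor in mean level, 12 were within 2-fold and 1 was lower, COL1A2. COL1A1 counted as within 2-fold by its brightest probe set, at 215 in Zeo and 189 in RECK/4NQ. All its other probe sets were lower by at least 1.5-fold, among them 1 at 257 and 85.4 and 1 at 46.4 and 2.01. Of 13 epithelial markers 3 had a mean level at the floor and 6 were below it on both arrays, and of these 3 ELF3, an epithelial factor, read 22.0 and 60.7 and GRHL2 37.1 and 9.30. Of 10 endothelial markers 8 were below the floor on both arrays, and the exceptions were TIE1, at 1440 and 1237, and PECAM1, at 108 and 72.4. Of 11 immune markers 8 had a mean level at the floor, with signals of at most 121 in Zeo and 151 in RECK/4NQ. The latter is CSF1R, a macrophage growth factor receptor, at 77.2 in Zeo. MS4A1, a B cell marker, read 12.1 and 26.6, but had a log2 ratio of -0.88 without shared probe sets. The part of other cells in the results was not tested.

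Ratios were also read by position. The median log2 ratio of the genes of a chromosome was 0.17 for chromosome 16 and -0.33 for chromosome 9, while those of the other chromosomes lay between -0.23 and -0.02. Over the 14357 genes placed on a chromosome and at the floor in mean level, 3.53% were higher and 8.61% lower. On chromosome 16 both shares were 5.43% of 644 genes. On chromosome 9, 3.57% of 588 were higher and 10.5% lower, and the share of lower genes was like that of chromosomes 4 and 10, at 10.3% and 10.4%. Within windows of 21 neighbouring genes at or above the floor the median over all 13897 windows was -0.13, with the lowest 1% under -0.58 and the highest 1% over 0.27. A window on chromosome 18 from GALNT1 to ATP5F1A had a median of 0.59, and one on chromosome 16 from TANGO6 to COG4 had 0.41 with 18 of 21 genes above 0. The lowest medians were -0.80 on chromosome 2 from DNAJC10 to NAB1, which holds ITGAV, and -0.79 on chromosome 3 from SMC4 to TNIK, which holds SMC4, CLDN11 and RPL22L1. With windows of 41 genes around the same middle genes these medians were -0.25 and -0.59. A window on chromosome 9 from KCNT1 to AGPAT2, which holds NOTCH1 and GPSM1, had -0.68 with 17 of 21 genes below 0. GPSM1, a regulator of G protein signalling, read 1444 and 686, short of 2-fold after centring.

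**Figure D5:**
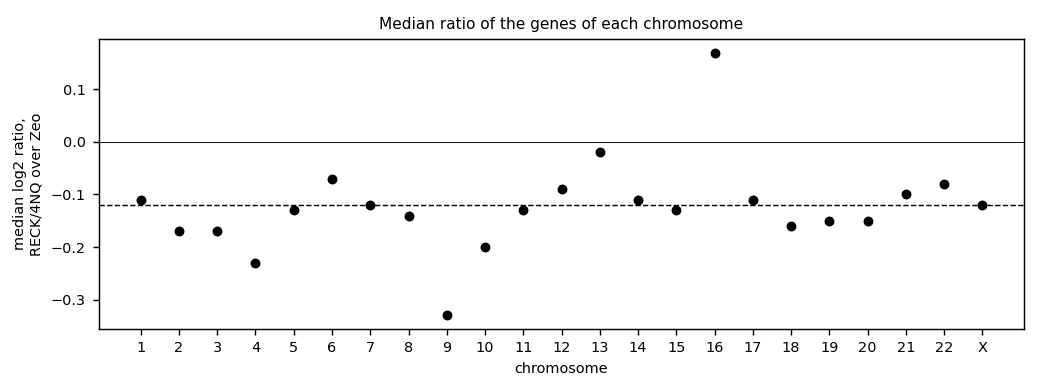
Median log2 ratio of RECK/4NQ over Zeo (vertical axis) of the genes of each chromosome (horizontal axis) whose mean level reached the floor, with the median of all such genes as a dashed line. Chromosome 16, at 0.17, is the highest and chromosome 9, at -0.33, the lowest.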

How the data were processed

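RNA of the HT1080 lines was labelled from 8.1 to 15 µg and hybridised to 1 Affymetrix array per line. Each deposited value is the linear intensity of 1 probe set on 1 array. The submitters' processing notes name MAS5 as the software, while the version and the scaling target it ran with are not given in the sources used. MAS5 subtracts a mismatch estimate, so weak signals are noisy. Intensities were used without further scaling. Probe sets with exactly 1 symbol in the platform's annotation named a gene, 41037 of them matched RefSeq (GRCh38), and 62 control probe sets were left out. The brightest probe set stood for a gene. Signals below the 40th percentile were set to it, and log2 ratios were taken with Python 3.11.15, numpy 2.4.6 and pandas 2.3.3. Since every line has 1 array, no difference was tested and neither p-values nor SDs exist, and the number of arrays limits the precision.

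The members and the 57 gene lists were chosen with earlier results of these data known, and 1 further list is not reported here. Genes were named by a rule. It took RECK and its best known partners, and up to 8 members of each list with the largest ratios. Per direction it took up to 20 supported and unopposed genes with a mean level of at least 27.8 and the largest ratios. Per direction it also took 10 with the largest signal difference and 8 with 1 array below the floor. The rule took 492 genes, and the text names only a part of them, picked without a stated rule. COL1A2, PKP2, AARS1, ANKRD1, PTPN14, TGFB2 and FOXF2 fall outside the naming rule and were named after their values were seen. Alternatives were quantile normalisation, median centring, floors at other percentiles, averaged probe sets, leaving out shared probe sets (names ending in _s_at, _x_at or _a_at) and a 3-fold rule. Lists with a relative median within 0.2 of 0 were not given a direction. Ratios of RECK/4NQ and of RECK to Zeo share the Zeo array, so these ratios were not compared with each other. For single genes the signal on the RECK array was set beside those of the other arrays, as description only.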

Additional observations from a re-analysis of the deposited data

Results flagged for a closer look

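A signal past 2-fold was also present in probe sets that the annotation used here lists with no gene, which the comparison of genes does not use. Of 11721 such probe sets 345 were higher (2.94%) and 648 lower (5.53%) in RECK/4NQ than in Zeo. Probe set 1555742_at read 722 in Zeo and 53.2 in RECK/4NQ, a log2 ratio of -3.76, and 241341_at read 116 and 13.9, a log2 ratio of -3.06. In the other direction 223632_s_at read 12.9 and 76.6, a log2 ratio of 2.57, and 215504_x_at read 25.5 and 148, a log2 ratio of 2.54. No group holds more than 1 array, so no sample could be set against others of its group.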

How the results depend on the processing

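The count of higher genes, 558 as reported, was 1415 and 167 with floors at the 20th and 60th percentile, 52 with a floor at the 80th, 326 with probe sets averaged and 121 at 3-fold. The count of lower genes, 1411 as reported, was 917 after quantile normalisation, 2686, 456 and 93 with those floors, 791 with probe sets averaged and 289 at 3-fold. Higher genes made up 45.9% of the genes past 2-fold after quantile normalisation and 45.2% after centring. The median log2 ratio of genes at the floor was -0.02 after quantile normalisation, 0.06 after centring, and -0.02 and 0.00 with floors at the 60th and 80th percentile. Quantile normalisation kept 915 of the 1411 lower genes and 555 of the 558 higher genes.

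Leaving out shared probe sets turned the log2 ratio of CDH11 (-1.70), EPB41L4B (0.27), GADD45B (0.07), MAD2L1 (0.50), MAGEC2 (1.03), MS4A1 (-0.88), SRCAP (-0.06), TAGLN (0.55) and TM6SF2 (-0.41), and averaging that of ITGB4 (0.38). The relative median turned for GPI anchor synthesis (-0.04) and epithelial markers (-0.47) without shared probe sets, and went to 0.00 for cadherins, catenins and junctions with probe sets averaged. The window from GPI to SBSN on chromosome 19, at 0.37 with 21 genes, had -0.04 with 41. The cause was not tested. Both scalings, and the floors at other percentiles, turned no named gene. Ratios past 2-fold were most frequent among genes with a mean signal from 18.7 to 24.4, where 13.5% were higher and 28.2% lower, so a ratio just past 2-fold at such a signal is weak. No paired analysis was possible because each group has 1 array.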

Other observations

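Several bright transcripts outside the gene lists differed between the lines. TMEM132D-AS1, an antisense transcript, read 2889 in Zeo, 1215 in RECK/4NQ and 653 in RECK, and its other measured probe set was lower too. An antisense transcript and its partner gene cannot be told apart where a probe set's strand is not stated. ZMYND19, a zinc finger protein, read 1422 and 594, 2.39-fold lower. CNDP2, a cytosolic dipeptidase, read 737 and 1488, 2.02-fold higher with another probe set in support, and NSMCE1, a subunit of the SMC5/6 complex of DNA repair, read 492 and 1176. CASTOR1, the arginine sensor of the mTORC1 pathway, read 67.2 and 170, again with support.

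Transcripts below the floor in 1 line give a lower bound only. IRF8, a factor of myeloid and B cell development, was at 6.88 in Zeo and 62.0 in RECK/4NQ, at least 5.07-fold higher, and 47.1 in RECK. SLC2A8, a glucose transporter of internal membranes, read 75.4 in Zeo, 2.11 in RECK/4NQ and 91.8 in RECK, at least 6.17-fold lower than Zeo. TM6SF2, a lipid protein, read 10.8 and 65.9, but without shared probe sets its log2 ratio was -0.41. KIR2DL5A, an immune receptor with near-identical copies, read 76.9 and 10.3, and its probe set may read more than 1 gene.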
